A study of Mus musculus with 18 samples.

Results

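Fatty acid oxidation was followed through 34 enzymes and carriers of the mitochondria and peroxisomes in mouse kidney, 34 of the 19545 entries of the deposited expression table. The members were taken by gene symbol from a fixed list, without reference to their values, and all 34 were found in the table. RNA had been sequenced from 18 kidney samples of ICR mice, an outbred stock, aged 10 weeks. Each of 6 groups had 3 samples. Control mice and mice given AOS at 10 mg/kg had received no STZ. STZ, in mice usually streptozotocin, which is toxic to the insulin-producing beta cells of the pancreas, was shared by the other 4 groups. These were STZ alone, STZ with AOS at 10 mg/kg given directly (STZ+AOS), STZ with FMT labelled for AOS at 10 mg/kg (STZ+AOS-FMT) and STZ with FMT labelled control (STZ+control-FMT). The labels do not spell out AOS, STZ or FMT, the usual abbreviation of faecal microbiota transplantation, and the series' design text states that FMT was studied in kidney damaged by STZ. They give neither the sex of the mice nor whether each sample came from another mouse, and p-values therefore cover the spread of these samples only, part of which may be technical. All values are scaled to gene length and library total (FPKM, a unit read from the values because no label names it), and the sequencing depth is unknown.

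The proximal tubule of the kidney covers most of its energy need by oxidizing fatty acids. A fatty acid is first joined to coenzyme A by an acyl-CoA synthetase, and long chains are then carried into the mitochondrion as carnitine esters. There, repeated turns of dehydrogenation, hydration, a second dehydrogenation and thiolysis release acetyl-CoA, and the electrons of the first step reach the respiratory chain through the electron transfer flavoprotein. Very long and branched chains are shortened in the peroxisome by a parallel set of enzymes. The tubule is known to lose much of this gene programme when it is injured.

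The members are spread over the genome, and 2 neighbourhoods hold several of them (mm10 throughout). Acsm5 (chr7:119519463-119545551), Acsm2 (chr7:119554340-119600690) and Acsm1 (chr7:119607026-119662515), 3 medium-chain acyl-CoA synthetases, follow each other on the forward strand of chromosome 7 with gaps of 8788 and 6335 bases. Hadha (chr5:30118304-30155162, reverse strand) and Hadhb (chr5:30155248-30184593, forward strand) encode the 2 subunits of the mitochondrial trifunctional protein, which carries out the last steps of the spiral on long chains. They point away from each other and are 85 bases apart in the GENCODE M21 annotation. That shared stretch is shown because both genes rose below, and it contains the letters GGGCGG, the core of a GC box, at 2 places. Beside it stand the 250 bases before a RefSeq start (GRCm38.p6) of Acsm2, the most abundant member, of Hadh, which fell, and of Acsl1, the first enzyme for long chains, 3 windows free of annotated exons. The stretch between Hadha and Hadhb is chr5:30155163-30155247 on the forward strand, and the windows are chr7:119554090-119554339 (forward), chr3:131272102-131272351 (reverse) and chr8:46470787-46471036 (forward). Capitals mark the nuclear receptor half-site AGGTCA, the core of the GC box GGGCGG, the box named for its letters CCAAT, and the TATA box TATAAA. Each was searched on both strands.
Hadha to Hadhb: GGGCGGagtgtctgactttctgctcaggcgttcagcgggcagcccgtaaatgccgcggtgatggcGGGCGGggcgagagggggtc
Acsm2: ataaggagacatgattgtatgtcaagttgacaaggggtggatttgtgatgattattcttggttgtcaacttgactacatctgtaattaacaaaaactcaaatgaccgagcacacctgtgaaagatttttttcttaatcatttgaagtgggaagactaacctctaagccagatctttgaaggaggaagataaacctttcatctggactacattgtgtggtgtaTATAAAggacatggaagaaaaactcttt
Hadh: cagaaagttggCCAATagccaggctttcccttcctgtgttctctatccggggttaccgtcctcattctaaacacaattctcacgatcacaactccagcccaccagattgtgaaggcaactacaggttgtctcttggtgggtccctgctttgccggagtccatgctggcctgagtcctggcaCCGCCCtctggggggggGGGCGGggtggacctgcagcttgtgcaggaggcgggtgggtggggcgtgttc
Acsl1: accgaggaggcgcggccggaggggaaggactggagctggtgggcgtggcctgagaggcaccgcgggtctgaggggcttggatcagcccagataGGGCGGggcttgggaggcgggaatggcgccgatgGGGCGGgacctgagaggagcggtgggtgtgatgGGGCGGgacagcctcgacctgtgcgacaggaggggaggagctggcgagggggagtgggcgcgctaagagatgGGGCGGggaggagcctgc

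In the window of Acsm2, 36% of the bases were G or C, and its one capitalised motif was TATAAA, which began 28 bases before the start. The window of Hadh had 59.6% G or C, and held CCAAT once and GGGCGG on each strand. That of Acsl1 had 72% G or C and GGGCGG at 4 places, whereas a second RefSeq start of Acsl1, not printed, had 48.4% G or C, CCAAT at 2 places and no GGGCGG. The search covered 32 RefSeq windows of 29 of the 34 members, with a second start for Acsm2, Acsl1 and Acox2. Chromosome 18, which holds Acaa2 and Hsd17b4, was left out for the members but not for all windows, so neither gene was searched. Amacr, Crat and Decr1 had no window and were not searched either. GGGCGG was found in 59.4% of the 32 windows, against 32.7% of all 32851 windows of the same length, but the members' windows were also richer in G and C (median 58.8% against 52.4%). CCAAT was found in 43.8% against 33.8%, AGGTCA in 18.8% against 14.0%, and TATAAA in 3.12%, the printed window of Acsm2, against 12.4%. None of the 32 windows held the relaxed DR1 motif, a direct repeat of the half-site with a base between the copies (0.338% of all windows), or the extended half-site TCAAGGTCA (0.387%). The palindrome known as the NRF1 motif was found in the window of Etfdh alone (3.12% against 0.782%), which lies inside annotated exons of Etfdh. CACGTG was found in 3.12% against 6.02%. The DR1 and extended motifs overlap the half-site, and a match is a run of letters, not a measured binding site.

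Before the comparisons, some libraries stood apart from their labels. The distance of a library was taken as its mean absolute log2 difference from the mean of the 3 AOS libraries over the 34 members, since the AOS libraries were the most alike. AOS libraries lay 0.0536 to 0.0630 from that mean and the first 2 controls 0.133 and 0.146, but control 3 lay at 0.474. The STZ libraries lay at 0.110, 0.320 and 0.560, so that STZ 1 was as near to the AOS libraries as the first 2 controls were. The androgen-responsive tubule transcript Kap and the p53 target Cdkn1a, neither of them a member, put the same libraries apart. Kap stood at 15798 FPKM in control 3 against 145522 and 150876 in the other controls, and at 144830 in STZ 1 against 63552 and 14615 in the other STZ libraries. Cdkn1a stood at 82.6 FPKM in control 3 and 6.52 in STZ 1. By these genes, 1 library labelled control resembled the libraries given STZ and 1 library labelled STZ resembled those without it. Comparisons that include the control or STZ group are given with and without both libraries.

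Other tissue also showed. Summed over 6 adrenal cortex markers, STZ+AOS libraries held 1743, 81.7 and 1284 FPKM, control 3 held 657 and STZ 2 and STZ 3 held 30.9 and 41.8. The other 12 libraries held 1.20 to 2.24, with Nr5a1, the transcription factor that defines adrenal cortex, at 0 in 11 of them. Summed over 5 chromaffin cell markers, the STZ+AOS libraries held 167, 7.84 and 153 FPKM, control 3 held 15.5 and every other library at most 1.10. The 4 spermatid markers summed to 18.2 to 74.3 FPKM in the control and STZ libraries and to at most 0.18 in the other 12. The 12 proximal tubule markers were abundant throughout. Their sum was 8539.6 to 9763 FPKM in AOS, 3727 to 5732 in STZ+AOS and 6665 to 8311 in the 6 transfer libraries. It ran from 5434 (control 3) to 8273 FPKM in the controls, and from 5212 (STZ 3) to 10061 (STZ 1) in the STZ group.

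**Figure D1:**
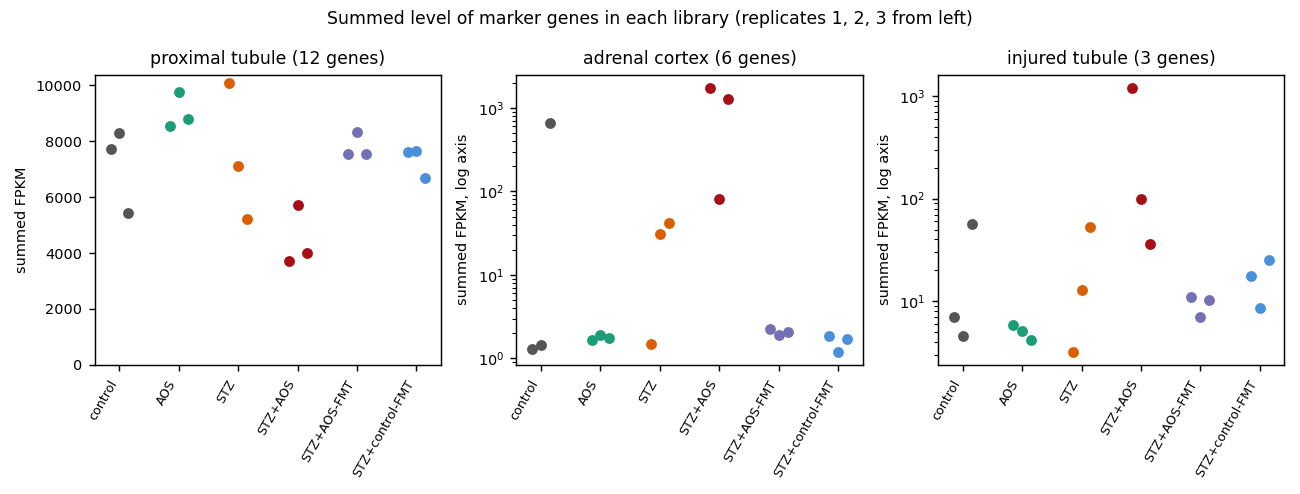
Summed FPKM of 12 proximal tubule, 6 adrenal cortex and 3 injured tubule markers (y axes, the last 2 on log scales) in each library (points) by group (x axis). The STZ+AOS libraries hold 3727 to 5732 FPKM of proximal tubule markers, below every AOS and transfer library, and 81.7 to 1743 FPKM of adrenal cortex markers, while every AOS and transfer library is at 2.24 or less.

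The module was expressed in every library. All 34 members passed the filter of at least 1 FPKM in at least 3 libraries, and the lowest single value was 10.9 FPKM, that of Decr2 in control 2. The most abundant member by its median over the 18 libraries was Acsm2 with 865 FPKM, higher than 99.3% of the 12682 genes tested. It was followed by the electron carrier subunit Etfb with 619, the medium-chain dehydrogenase Acadm with 474, the dienoyl-CoA isomerase Ech1 with 424 and the short-chain 3-hydroxyacyl-CoA dehydrogenase Hadh with 400.5. Neighbours in this order overlapped in their ranges: Acadm ran from 232 to 631 FPKM, Ech1 from 332 to 529 and Hadh from 230 to 437. The least abundant were Slc25a20, the carrier that moves acylcarnitines across the inner mitochondrial membrane, with 22.4, and the peroxisomal dienoyl-CoA reductase Decr2 with 17.7, which still stood above 67.0% of genes. Members differed in how far they varied. The highest library held 1.22 times the lowest for Acadvl, the very-long-chain dehydrogenase, and 6.82 times for Amacr, the racemase that prepares branched chains for the peroxisome. The median of this ratio was 1.92 over the 34 members. It was under 1.5 for 6 members, 1.5 to 2 for 15, 2 to 4 for 11 and over 4 for Amacr and Acsm1 only (4.84). STZ+AOS 1 was the lowest library for 14 members, and STZ 3 the highest for 8.

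**Figure D2:**
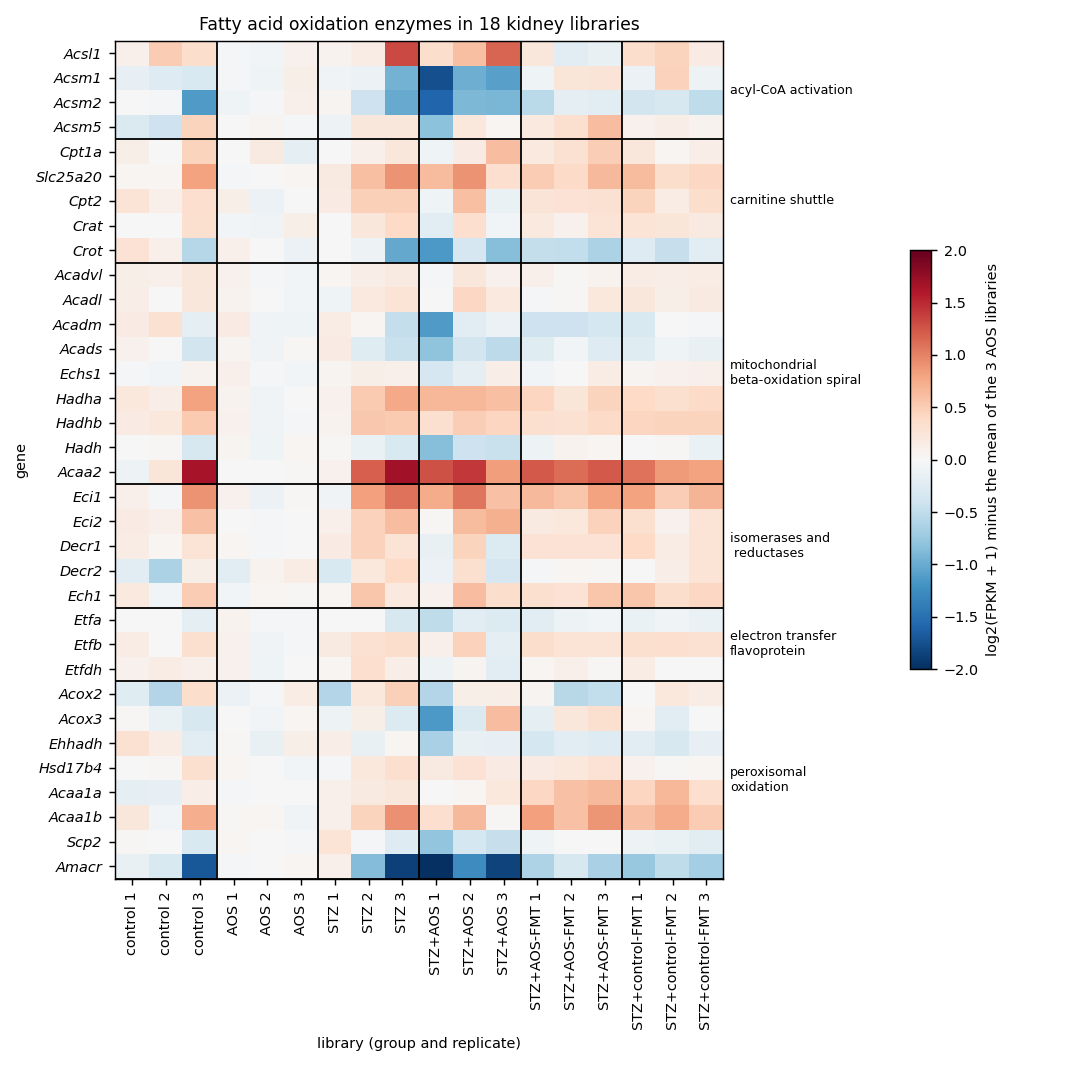
log2(FPKM + 1) of each of the 34 members (rows, by role) in each of the 18 libraries (columns, by group) minus the mean of the 3 AOS libraries (colour, from -2 to 2). Control 3, STZ 2, STZ 3 and the 3 STZ+AOS libraries share blue for Amacr and red for Acaa2 and Eci1. The 6 transfer libraries do too, with a paler blue for Amacr, and STZ 1 is pale like the AOS libraries.

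STZ+AOS against AOS, the effect of STZ in mice given AOS, gave the most calls. Its group means used neither of the libraries that stood apart from their labels. The spread behind its p-values was estimated over all 18 libraries, both of these included. The module split. Of the 34 members, 7 rose and 8 fell (limma on log2(FPKM + 1), Benjamini-Hochberg adjusted p under 0.05). Over all 12682 genes, 46.5% were called (39.3% higher and 7.18% lower), so the 15 members called, 44.1% of 34, were about as frequent as genes in general. The members called lower were 23.5% of 34 and those called higher 20.6%. The median log2 difference was 0.01 over the members and 0.29 over all genes, and 25 of 34 members lay under the median of all genes. The groups did not overlap for 9 members that were higher and 9 that were lower in STZ+AOS, where 59.4% of all genes did not overlap (49.7% higher and 9.75% lower). Median-of-ratios rescaling sets that median of all genes near 0. On that scale 1 member was called higher and 12 lower, against 7 and 8. Of the 7 that rose, only Hadha was still called. Acsl1, Slc25a20, Hadhb, Acaa2, Eci1 and Eci2 were not (limma adjusted p up to 0.519), so their calls below depend on the scale. The 15 members kept their direction. Over all genes that scale gave 1907 higher and 2260 lower calls, against 4985 and 910. In limma fitted on the groups compared alone, 6 members were called higher and 8 lower, with Eci2 lost (adjusted p 0.0807). Of the 12163 genes tested there, 4450 were called higher and 766 lower.

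Among the enzymes that activate fatty acids, 2 of the 3 medium-chain synthetases fell. Acsm1, a mitochondrial matrix enzyme that also prepares acids for conjugation with glycine, stood at 68.03, 65.1 and 75.1 FPKM in the AOS libraries and at 19.8, 34.8 and 32.2 in the STZ+AOS libraries. All 3 STZ+AOS libraries were below every AOS library, and the log2 difference was -1.27 ± 0.24 (SE) with an adjusted p of 0.00590. Acsm2, its neighbour, was at 1037, 1083 and 1174 FPKM in AOS and 364, 588 and 579 in STZ+AOS. Its groups did not overlap either, and the difference was -1.14 ± 0.29 (adjusted p 0.0100). The third gene of the cluster, Acsm5, did not pass the test (-0.19, adjusted p 0.521), with 38.7, 40.2 and 37.7 FPKM in AOS and 21.7, 45.3 and 39.8 in STZ+AOS. STZ+AOS 1 alone was low for it. Acsl1, which activates long chains at the outer mitochondrial membrane, went the other way and rose by 0.71 ± 0.27 (adjusted p 0.0459). Its values were 47.1, 46.2 and 51.2 FPKM in AOS and 61.6, 73.6 and 109 in STZ+AOS. Acsl1 and, in the following paragraphs, Slc25a20, Crot, Acaa2 and Eci2 were outside the 10 members of smallest p and were named after their values were seen.

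In the carnitine shuttle 1 member rose, 1 fell and 3 did not pass. Slc25a20 rose, from 16.2, 16.8 and 17.2 FPKM in AOS to 26.6, 32.1 and 21.4 in STZ+AOS, with a difference of 0.63 ± 0.21 (adjusted p 0.0256). Crot, the peroxisomal transferase that makes carnitine esters of medium chains for export, fell, from 172, 160.2 and 147 to 71.1, 126 and 88.2 FPKM (-0.78 ± 0.26, adjusted p 0.0270). Neither gene's groups overlapped. Cpt1a, the outer-membrane transferase that malonyl-CoA inhibits and the controlling step of long-chain entry, did not pass, with 89.4 ± 11.4 FPKM in AOS and 107 ± 27.6 in STZ+AOS (mean ± SD, n = 3 each). Cpt2, which reverses the reaction inside, had 65.4 ± 5.61 and 73.2 ± 22.6 FPKM, and Crat, the short-chain transferase, 61.04 ± 4.49 and 62.5 ± 12.9. For these 3 the spread within STZ+AOS was wider than the gap between the means.

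In the mitochondrial spiral 3 of 9 members rose and 2 fell. Hadha and Hadhb, the 2 subunits of the trifunctional protein, both rose. Hadha stood at 55.3, 49.95 and 52.8 FPKM in AOS and 83.99, 84.4 and 80.1 in STZ+AOS, with a difference of 0.64 ± 0.16 with an adjusted p of 0.00943. Hadhb stood at 115, 103 and 106 and 134, 152 and 145 FPKM (0.41 ± 0.12, adjusted p 0.0150). In each pair of groups every STZ+AOS library was above every AOS library. Acaa2, the thiolase that ends each turn on medium and short chains, rose more than any other member, from 69.00, 68.6 and 70.03 FPKM to 169, 187 and 125 (1.18 ± 0.39, adjusted p 0.0251). The 3 AOS libraries were within 1.46 FPKM of each other, while the STZ+AOS libraries ran from 125 to 187.

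Hadh and Acads, which act on short and medium chains, fell. Hadh, the soluble dehydrogenase of the third step, was at 431, 390.0 and 425 FPKM in AOS and 229.9, 313 and 305 in STZ+AOS, with a difference of -0.57 ± 0.13 (adjusted p 0.00738). Acads, the short-chain dehydrogenase of the first step, was at 116, 107 and 114 and 64.1, 87.2 and 77.7 FPKM (-0.56 ± 0.15, adjusted p 0.0115). STZ+AOS 1 was the lowest library for both, and the other 2 STZ+AOS libraries were also below all AOS libraries. The medium-chain dehydrogenase Acadm did not pass although its groups did not overlap, with 570.4, 484 and 478 FPKM in AOS and 232, 435 and 469.6 in STZ+AOS (adjusted p 0.0853). The dehydrogenases of longer chains stood at 144 ± 7.50 FPKM in AOS and 155 ± 13.8 in STZ+AOS for Acadvl and at 140.5 ± 6.10 and 163 ± 24.1 for Acadl. The hydratase Echs1 stood at 148 ± 8.80 and 137 ± 23.8. None of these 3 passed.

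Of the auxiliary enzymes for unsaturated chains, 2 of 5 rose. Eci1, the mitochondrial isomerase that shifts double bonds into the position the spiral can use, stood at 86.5, 74.7 and 82.99 FPKM in AOS and 136, 171 and 123 in STZ+AOS (0.80 ± 0.26, adjusted p 0.0246). Eci2, the isomerase found in both organelles, stood at 71.6, 69.6 and 71.5 and 72.3, 111 and 116 FPKM (0.46 ± 0.18, adjusted p 0.0471). STZ+AOS 1 lay only just above the AOS libraries for Eci2. Ech1 did not overlap between the groups but missed the threshold (0.35, adjusted p 0.0818). The reductases Decr1 and Decr2 differed by 0.01 and -0.04. Of the electron transfer chain, Etfa, the alpha subunit of the flavoprotein, fell from 238, 221 and 219.6 to 159, 194 and 188 FPKM (-0.33 ± 0.10, adjusted p 0.0197). Its partner Etfb and the dehydrogenase Etfdh, which passes the electrons to ubiquinone, did not pass (0.12 and -0.09).

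In the peroxisomal arm 2 of 8 members fell and none rose. Amacr showed the largest difference of the module. Its values were 386, 393 and 408 FPKM in AOS and 62.4, 164 and 109 in STZ+AOS, with a difference of -1.92 ± 0.45 (adjusted p 0.00808). The highest STZ+AOS library was 222 FPKM under the lowest AOS library. Scp2, whose long form is the thiolase for branched chains and whose short form carries sterols, fell from 398, 386 and 380.3 to 223, 303 and 281 FPKM (-0.54 ± 0.13, adjusted p 0.00887). Scp2 and Amacr both act on branched chains. Acox2, the oxidase of the same chains, and the related Acox3 did not pass (-0.11 and -0.27), nor did the bifunctional enzymes Ehhadh and Hsd17b4 (-0.32 and 0.22) or the thiolases Acaa1a and Acaa1b (0.08 and 0.34). For Acox3 the STZ+AOS libraries were far apart, at 38.96, 71.2 and 134 FPKM.

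**Figure D3:**
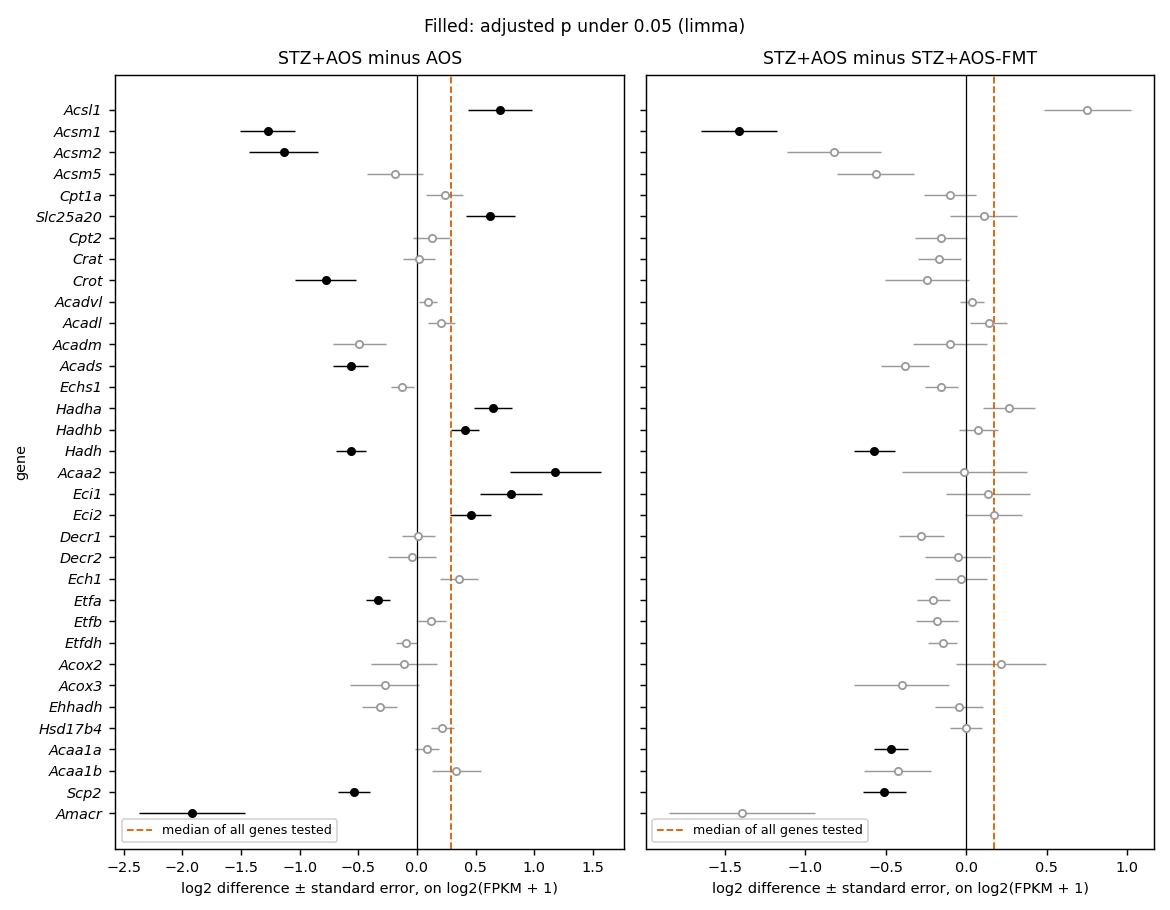
log2 difference ± standard error (x axis) of each member (y axis, by role) for STZ+AOS minus AOS (left) and STZ+AOS minus STZ+AOS-FMT (right), filled where the adjusted p is under 0.05. On the left 7 members are filled to the right of 0 and 8 to the left, on the right 4 are filled and all lie to the left, and the dashed lines mark the median of all genes at 0.29 and 0.17.

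Of the 12 proximal tubule markers, 8 fell in the same comparison and none rose, with a median log2 difference of -0.90. All 6 adrenal cortex, all 5 chromaffin and all 3 injured tubule markers rose. So did all 4 podocyte, all 4 endothelial and all 4 fibroblast markers, with medians of 1.07, 0.93 and 1.14, and 3 of 5 principal cell markers. Fewer cells of a type and less RNA per cell cannot be told apart in such bulk samples, and the part of these tissues and cell types in the members' differences was not tested. Without STZ+AOS 1 and STZ+AOS 3, the 2 libraries with the most adrenal transcripts, no member and no gene at all was called with 1 library left in the group, and the 15 members kept their direction. With 1 library left out at a time, 8 to 15 members were called in all, and each exclusion lost some of the 15. Of these, 9, 8 and 9 were still called without AOS 1, 2 and 3 and 10, 10 and 12 without STZ+AOS 1, 2 and 3.

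The wider pathway, 73 tested genes of a list that holds no member, also had calls in both directions. In STZ+AOS against AOS, 16 rose and 17 fell, 45.2% of the list, where 46.5% of all genes were called. Acsf3, a mitochondrial synthetase of malonyl-CoA, stood at 44.4, 39.7 and 44.01 FPKM in AOS and 29.2, 32.2 and 27.97 in STZ+AOS (-0.51, adjusted p 0.00590). Pecr, the peroxisomal enoyl-CoA reductase, stood at 788, 811 and 851 and 199.8, 409 and 274 FPKM (-1.53, adjusted p 0.00640). Both fell with no overlap, as did the acyl-CoA dehydrogenase gene Acad12 (-1.22, adjusted p 0.00738). Acsl4, the synthetase that prefers arachidonic acid, rose from 8.41, 6.99 and 6.58 to 30.2, 11.7 and 23.7 FPKM (1.37, adjusted p 0.00640). By role, beside the 39.3% of all genes called higher and 7.18% called lower, 6 of 9 other acyl-CoA dehydrogenases and oxidases fell and none rose, and of 5 ketone body genes 4 fell and 1 rose. Of 9 thioesterases 4 rose and none fell, a share near that of all genes. Of 9 other synthetases 4 rose and 2 fell, of 8 uptake and binding genes 3 rose and 1 fell, of 3 genes of malonyl-CoA control 1 rose and 1 fell, of 23 other peroxisomal genes 3 rose and 3 fell, and of 7 regulators none passed.

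STZ+AOS was next set against STZ+AOS-FMT, AOS given directly against FMT labelled for AOS, both in mice given STZ. In all, 4 members fell and none rose. Over all genes 15.1% were called (11.1% higher and 3.99% lower in STZ+AOS), and the 4 members are 11.8% of 34. The count over all genes, 1919, ran from 42 without STZ+AOS-FMT 2 to 2131 without STZ+AOS 2. The median log2 difference was -0.15 over the members and 0.17 over all genes, and 31 of 34 members lay under the median of all genes. Median-of-ratios rescaling gave 9 members lower and none higher, and over all genes 818 higher and 1047 lower calls, against 1413 and 506. Groups did not overlap for 2 members that were higher (5.88%) and 8 that were lower (23.5%), where 42.7% of all genes did not overlap (33.2% higher and 9.49% lower).

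Acsm1 again had the smallest p. It stood at 65.5, 82.6 and 82.7 FPKM in STZ+AOS-FMT, against the 19.8, 34.8 and 32.2 of STZ+AOS, and the log2 difference was -1.41 ± 0.24 (adjusted p 0.00970). Hadh stood at 387, 437 and 428 FPKM in STZ+AOS-FMT (-0.57 ± 0.13, adjusted p 0.0191), and Scp2 at 367, 387 and 387 (-0.51 ± 0.13, adjusted p 0.0290). For all 3 genes the STZ+AOS-FMT libraries were near the AOS libraries and above every STZ+AOS library. The fourth, the peroxisomal thiolase Acaa1a, stood at 72.3, 74.4 and 84.2 FPKM in STZ+AOS and 96.6, 109 and 115 in STZ+AOS-FMT (-0.47 ± 0.10, adjusted p 0.0191). Its AOS values, 71.04, 73.2 and 73.01 FPKM, were below every STZ+AOS-FMT library. Amacr fell just short (-1.39, adjusted p 0.0506), although its STZ+AOS-FMT libraries, at 257, 318 and 252 FPKM, were all above those of STZ+AOS.

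Of the 12 proximal tubule markers, 9 fell in this comparison and none rose, and all 6 adrenal cortex, all 5 chromaffin, 3 of 4 endothelial, 2 of 4 fibroblast and 2 of 3 injured tubule markers rose. The part of these in the 4 calls was not tested. No member was called without STZ+AOS-FMT 2, 1 was called without STZ+AOS 1 or without STZ+AOS-FMT 3, 8 without STZ+AOS 2, and none without both STZ+AOS 1 and 3. Of the wider pathway, 2 genes rose and 10 fell. Acsf3 (-0.45, adjusted p 0.0182) fell, as did catalase, which splits the peroxide that peroxisomal oxidases release, and the mitochondrial thioesterase Acot9 rose (0.58, adjusted p 0.0195).

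STZ+AOS against STZ, the effect of AOS in mice given STZ, called 2 members, both lower. The background was 4.53% of all genes (3.44% higher and 1.10% lower), and 2 of 34 is 5.88%. Scp2 stood at 469, 382 and 325 FPKM in STZ against 223, 303 and 281 in STZ+AOS, with a difference of -0.54 ± 0.13 with an adjusted p of 0.0474. Acsm1 stood at 66.1, 64.02 and 35.4 against 19.8, 34.8 and 32.2 FPKM (-0.90 ± 0.24, adjusted p 0.0486). Neither gene overlapped between the groups, but STZ 3 came within 0.59 FPKM of STZ+AOS 2 for Acsm1. Hadh, the third member with no overlap, was not called (-0.43, adjusted p 0.0585). The median log2 difference was -0.17 over the members and 0.19 over all genes, with 30 of 34 members under the latter. Without overlap, 3 members were lower and none higher, where 24.3% of all genes did not overlap (20.2% higher and 4.01% lower). Median-of-ratios rescaling gave 3 members lower, and over all genes 219 higher and 475 lower calls, against 436 and 139.

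Both calls were near the threshold, and most exclusions of 1 library ended them. Leaving out STZ+AOS 1, STZ+AOS 3, STZ 1 or STZ 2 ended both, as did leaving out control 3 and STZ 1 together or STZ+AOS 1 and 3 together, whereas 9 members were called without STZ 3 and 6 without STZ+AOS 2. Of the proximal tubule markers 2 of 12 fell, and of the adrenal cortex markers 2 of 6 rose, all 6 without overlap between the groups (median log2 difference 4.64). All 5 chromaffin markers rose (median 3.48) and all 4 spermatid markers fell (median -3.18). The part of these in the calls was not tested. The count over all genes, 575, was 11 without STZ 1 or without STZ 2, 3355 without STZ 3 and 1384 of 12571 without STZ+AOS 2. In the wider pathway Acsl4 alone passed, with 6.85, 8.38 and 11.2 FPKM in STZ against 30.2, 11.7 and 23.7 (1.15, adjusted p 0.0478).

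Whether AOS acted on the members differently with and without STZ was asked by the interaction, (STZ+AOS minus STZ) minus (AOS minus control). No member and no gene was called (background 0%), although 7 members and 4240 genes had an unadjusted p under 0.05. The smallest p values belonged to Acsm1 (-1.14 ± 0.33, adjusted p 0.0771), Scp2 (-0.63 ± 0.19, adjusted p 0.0771) and Hadh (-0.53 ± 0.18, adjusted p 0.0901). Leaving out STZ 3 gave 9 members and 3042 genes, and leaving out STZ+AOS 2 gave 2 members and 793 genes. Without control 3 and STZ 1 no member was called, and the interaction for Acsm1 was -0.96 (adjusted p 0.314).

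**Figure D4:**
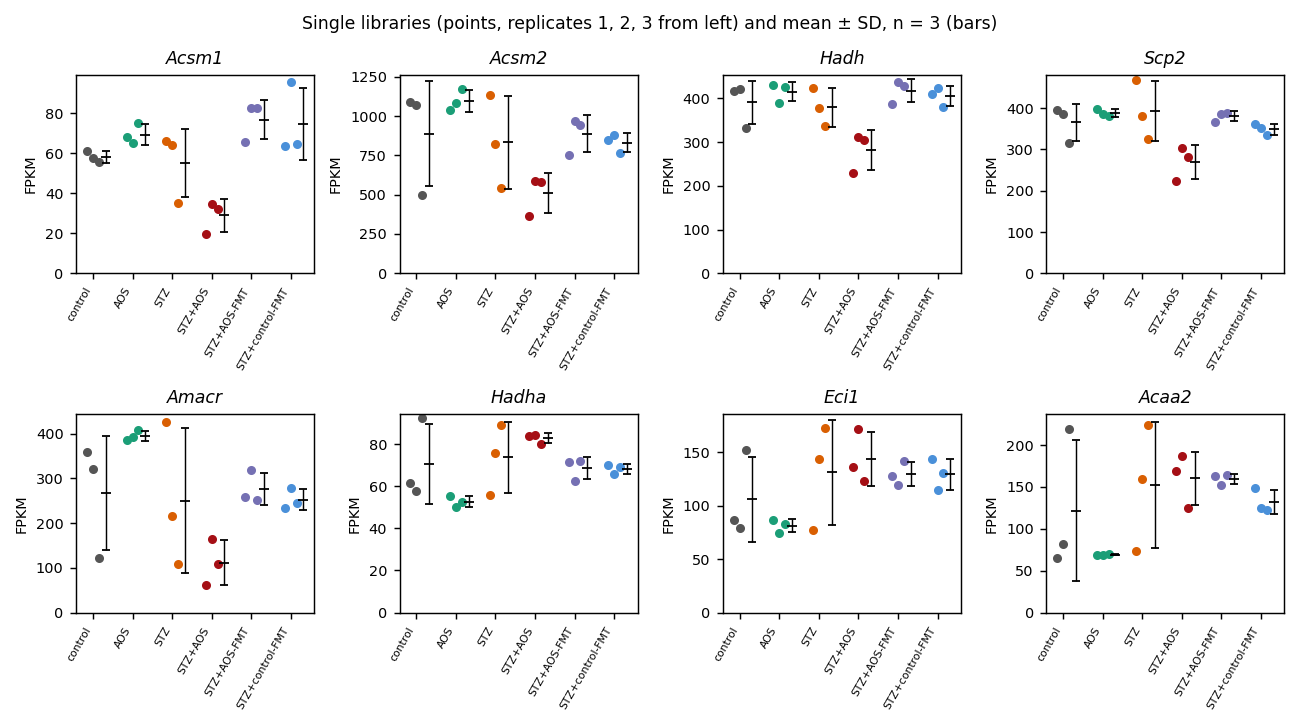
FPKM (y axis, from 0) of 8 members in each library (points, replicates 1 to 3 from left) by group (x axis), with the mean ± SD of 3 libraries (bars). Acsm1, Hadh and Scp2 are lowest in STZ+AOS, Amacr and Acsm2 are high in AOS and low in control 3 and STZ 3, and Acaa2 and Eci1 show the reverse of Amacr.

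The transfer groups were compared together with AOS, which sets 6 libraries with almost no adrenal transcripts against 3. The sides differ in STZ, in FMT and in AOS given directly, and the parts of these cannot be told apart. In the fit over all 18 libraries no member passed, where 2 of 12682 genes did (0.0158%, with 0.00789% in each direction), and 11 members and 1844 genes had an unadjusted p under 0.05. The 3 smallest p values belonged to peroxisomal and mitochondrial thiolase genes. Acaa1a stood at 71.04, 73.2 and 73.01 FPKM in AOS, 96.6, 109 and 115 in STZ+AOS-FMT and 98.1, 115 and 92.00 in STZ+control-FMT (0.51 ± 0.09, adjusted p 0.109). Acaa1b, 182582 bases from it on chromosome 9, stood at 108, 109 and 101, 188, 160.0 and 196 and 160.1, 178 and 151 FPKM (0.69 ± 0.18, adjusted p 0.224). Hadhb, the thiolase-bearing subunit of the trifunctional protein, stood at 115, 103 and 106, 135, 133 and 141 and 146, 146 and 146 FPKM (0.39 ± 0.10, adjusted p 0.224). For all 3 genes each transfer library was above each AOS library. In all, 13 members were higher and 5 lower with no overlap, 52.9% of 34, where 24.8% of all genes did not overlap (20.4% higher and 4.43% lower).

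The calls differed between fits. Fitted on the 9 libraries of the 3 groups alone, 13 members rose and 4 fell, 50% of 34, where 21.9% of the 12061 genes tested were called (17.8% higher and 4.10% lower). Acaa2 stood at 163, 152 and 164 FPKM in STZ+AOS-FMT and 149, 125 and 122 in STZ+control-FMT, against the 69.00, 68.6 and 70.03 of AOS, and had the smallest p (1.05 ± 0.07, adjusted p 6.56e-05). Also in that fit Acaa1b (0.69 ± 0.08, adjusted p 0.000707), Hadhb (0.39 ± 0.05, adjusted p 0.00115), Eci1 (0.66 ± 0.08, adjusted p 0.00123), Acaa1a, Etfb, Slc25a20, Hadha, Ech1, Decr1, Cpt2, Eci2 and Crat rose. Those that fell were Amacr (-0.59 ± 0.08, adjusted p 0.00198), Crot (-0.42 ± 0.07, adjusted p 0.00500), Acsm2 (-0.36 ± 0.09, adjusted p 0.0205) and Ehhadh (-0.26 ± 0.07, adjusted p 0.0272), the first bifunctional enzyme of the peroxisome. Hadha and Hadhb, which share the stretch printed above, thus both rose here. This comparison and that of STZ+AOS with AOS share the AOS libraries. Acsm1, Hadh and Scp2, lower in STZ+AOS, were not called in the transfers, where Acsm1 was at 65.5 to 82.7 FPKM in STZ+AOS-FMT and 63.9 to 95.6 in STZ+control-FMT, Hadh at 387 to 437 and 380.2 to 424, and Scp2 at 367 to 387 and 334 to 361. In the fit on 9 libraries 3 of the 12 proximal tubule markers rose and 4 fell, with a median log2 difference of -0.11, and 4 of 5 principal cell and 2 of 3 injured tubule markers rose. In the fit over all libraries none of these passed, and all 3 injured tubule markers were higher without overlap. Their part in the members' calls was not tested. Of the wider pathway no gene passed in the fit over all libraries. With no overlap 17 were higher and 11 lower, 38.4% of 73, against 24.8% of all genes. In the fit on 9 libraries calls were not confined to the members. Called higher and lower were 4 and 1 of 9 thioesterases and 3 and 1 of 9 other synthetases. Other dehydrogenases and oxidases had 1 and 3 of 9, ketone body genes 1 and 3 of 5 and regulators 2 and 1 of 7. Uptake and binding had 3 and 2 of 7, malonyl-CoA control 1 and 1 of 3 and other peroxisomal genes 3 and 2 of 23.

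No difference between the 2 kinds of FMT was detected in the members. STZ+AOS-FMT against STZ+control-FMT called no member and no gene (background 0%), and no member but 209 genes had an unadjusted p under 0.05. The smallest p values belonged to Hsd17b4, the second bifunctional enzyme of the peroxisome (0.16 ± 0.10), Acox2 (-0.44 ± 0.28) and Acsl1 (-0.36 ± 0.27), each with an adjusted p of 1.00. Hsd17b4 stood at 94.8, 97.8 and 103 FPKM with FMT labelled for AOS and 90.01, 86.3 and 87.2 with FMT labelled control, with no overlap, and Acox2 at 40.6, 26.3 and 27.3 and 38.7, 45.1 and 43.3, with overlap. Without overlap, 4 members were higher and 4 lower, 23.5% of 34, where 11.2% of all genes did not overlap (6.39% higher and 4.85% lower).

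Against STZ alone, neither transfer called a member. With STZ+AOS-FMT 0.110% of all genes were called and with STZ+control-FMT 0.103%, and 2 members and 1 member had an unadjusted p under 0.05. All 4 spermatid markers were among the genes called lower in each. In both, Acaa1a had the smallest p, with 77.5, 82.3 and 85.2 FPKM in STZ and every library of both transfer groups above that (0.38 ± 0.10, adjusted p 0.555, and 0.31 ± 0.10, adjusted p 1.000). Acsm1 and Acsl1 followed for STZ+AOS-FMT (0.52 and -0.56) and Acsm1 and Ehhadh for STZ+control-FMT (0.46 and -0.25). Ehhadh, with 247, 203 and 230.3 FPKM in STZ, was lower in every transfer library. Acaa1a and Ehhadh were the only members without overlap, 1 higher and 1 lower in each comparison. Of all genes, 8.40% did not overlap for STZ+AOS-FMT (5.50% higher and 2.90% lower) and 6.42% for STZ+control-FMT (4.19% higher and 2.22% lower). Both comparisons share the STZ libraries, and leaving out control 3 and STZ 1 called no member in either.

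STZ against control called no member and no gene (background 0%), with 1 member and 161 genes at an unadjusted p under 0.05. No member separated the groups, where 3.23% of all genes did not overlap (1.14% higher and 2.08% lower). The smallest p values belonged to Acaa1a (0.24 ± 0.10), Decr2 (0.35 ± 0.21) and Slc25a20 (0.27 ± 0.21), each with an adjusted p of 0.9996. Without control 3 and STZ 1 the comparison changed. In the 4 libraries left, 6 members rose and none fell, 17.6% of 34, where 8.82% of all genes were called (7.03% higher). These were Acaa2 (1.36 ± 0.19, adjusted p 0.00193), Eci1 (0.92 ± 0.16, adjusted p 0.00498), Hadha (0.46 ± 0.10, adjusted p 0.0150), Slc25a20 (0.71 ± 0.16, adjusted p 0.0194), Hadhb (0.35 ± 0.08, adjusted p 0.0212) and Decr2 (0.74 ± 0.19, adjusted p 0.0324). Acaa2 stood at 64.7 and 81.7 FPKM in the controls kept and at 159 and 224 in the STZ libraries kept, while control 3 held 219 and STZ 1 held 73.9. These 2 libraries were left out after their values were seen, the members' values among them, so the 6 calls are a description of the 4 libraries kept.

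AOS against control, without STZ, called no member (0.0710% of all genes, 9 of them, all lower), and 2 members had an unadjusted p under 0.05. All 4 spermatid markers were among the 9 genes called. Hadhb (-0.29 ± 0.12), Hadha (-0.39 ± 0.16) and Acadvl (-0.15 ± 0.08) had the smallest p values, with an adjusted p of 0.817 each. Hadha stood at 61.4, 58.00 and 92.3 FPKM in the controls against 55.3, 49.95 and 52.8 in AOS, and Hadhb at 120.4, 124 and 155 against 115, 103 and 106. The AOS libraries were below all controls for both, and control 3 was the highest control. Without overlap, 2 members were higher and 7 lower, 26.5% of 34, where 13.1% of all genes did not overlap (2.89% higher and 10.2% lower). Acsm1, at 61.4, 57.5 and 55.9 FPKM in the controls, was one of the 2 that were higher in AOS, and Amacr was the other. Leaving out control 3 and STZ 1 called no member either.

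Some members share transcript sequence with other genes, and how the authors assigned such reads is not given in the sources used here. Of 50-base runs in its annotated transcripts, Etfb shared 43.8% with Gm45233, Acaa1b 30.5% with Acaa1a, Scp2 29.7% with Scp2-ps2, Acadvl 26.9% with Dvl2 and Hadhb 18.1% with Gm13910. The values of these genes, and of Acaa1a, which shared 12.4% with Acaa1b, are therefore uncertain to an unknown extent. A share of such runs is not a share of reads. Acsm1, Acaa2, Amacr and Acads shared none with any other gene.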

How the data were processed

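Kidney RNA of 18 samples in 6 groups of 3 was sequenced, and the authors deposited 1 table of gene values. The deposited values are FPKM, a unit inferred from the values. Reads were handled with Bowtie 0.12.2 against mm10, per the submitters' processing notes, and the counting step is not given in the sources used here. Depth is unknown, so no counting interval is given. The 12682 genes that reached 1 FPKM in 3 or more libraries were put on the log2(FPKM + 1) scale, which understates changes of low genes. A limma 3.58.1 model (R 4.3.3, trend and robust) was fitted over all 18 libraries with a mean for each group, after a test on simulated data. The 10 comparisons were adjusted by Benjamini-Hochberg over all genes, with a threshold of 0.05. Exact permutation p-values, which cannot be smaller than 0.1 for 3 against 3, were not computed. Named were the members past the threshold, at most the 10 of smallest p, or the 3 of smallest p where none passed. From the wider pathway at most 4 called genes of smallest p were named. A gene that this rule named in 1 comparison is not reported here. Alternatives were pseudocounts of 0.1 and 5, no filter, median-of-ratios and quantile scaling, no trend or robust option, a block for replicate numbers, the compared groups alone and each library left out. The members, lists and library exclusions were chosen with earlier results of these data known. Coordinates are from GENCODE M21 (mm10) and upstream windows from RefSeq (GRCm38.p6).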

Additional observations from a re-analysis of the deposited data

Results flagged for a closer look

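Acsm1 was singled out because its difference under AOS ran in opposite directions without and with STZ. In mice without STZ every AOS library (68.03, 65.1 and 75.1 FPKM) was above every control (61.4, 57.5 and 55.9), and in mice given STZ every STZ+AOS library (19.8, 34.8 and 32.2) was below every STZ library (66.1, 64.02 and 35.4). The interaction, the second difference minus the first, was -1.14 on the log2 scale with an adjusted p of 0.0771 in limma, which did not pass the threshold. Without STZ 3 it was -1.43 with an adjusted p of 0.0249, and without control 3 and STZ 1 it was -0.96 with an adjusted p of 0.314.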

How the results depend on the processing

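In the 3 comparisons that called members, the count moved by over 1.5 times in 22 of 46 alternatives (4 of 15 for STZ+AOS against AOS, 7 of 15 against STZ+AOS-FMT and 11 of 16 against STZ), and no named member changed direction in any of 792 checks. STZ+AOS against AOS called 8 to 15 members with single libraries left out (15 in the main fit), and none without STZ+AOS 1 and 3. STZ+AOS against STZ+AOS-FMT (4) called 0 to 8 with single libraries left out, 9 after median-of-ratios rescaling, 2 after quantile normalization and 0 without STZ+AOS 1 and 3. STZ+AOS against STZ (2) called 0 to 9 with single libraries left out, and 0 at a pseudocount of 0.1, after quantile normalization, with only the groups compared, without control 3 and STZ 1, and without STZ+AOS 1 and 3. The transfers against AOS (0) called 17 with only the groups compared, and STZ against control (0) called 6 without control 3 and STZ 1. The interaction (0) called 0 to 9 with single libraries left out. Exclusions of 2 libraries were chosen after seeing the data. The members' median for STZ+AOS against AOS moved from 0.01 to -0.30 after median-of-ratios rescaling, which moved the median of all genes from 0.29 to 0.02, and to 0.22 without STZ+AOS 1 and 3. Over all genes, calls for STZ+AOS against STZ moved from 575 to 242 at a pseudocount of 0.1, 952 at 5, 1126 without the filter, 1116 with the replicate block, 128 after quantile normalization, 0 with only the groups compared, 11 without control 3 and STZ 1, and 1 without STZ+AOS 1 and 3. With single libraries left out they ran from 11 to 3355, those for STZ+AOS against STZ+AOS-FMT from 42 to 2131, those for STZ+AOS against AOS from 3506 to 5732 and those for the interaction from 0 to 3042 (without STZ 3). Calls for STZ+AOS against AOS moved from 5895 to 3358 after quantile normalization and 0 without STZ+AOS 1 and 3, and for STZ+AOS against STZ+AOS-FMT from 1919 to 1216 with only the groups compared and 0 without STZ+AOS 1 and 3. Those for STZ against control moved from 0 to 7 without the filter, 2 with only the groups compared, 1 after quantile normalization and 1110 without control 3 and STZ 1, and those for the transfers against AOS from 2 to 2639 with only the groups compared 0 or 1 in 6 other processing settings, 3 without STZ+AOS-FMT 1 and 0 without each of the other 8 libraries. Without the filter, calls moved from 9 to 40 for AOS against control, from 14 to 179 and 13 to 163 for the transfers against STZ and from 0 to 3 for the interaction. AOS against control called 1 at a pseudocount of 5, 4 after quantile normalization and 5 with only the groups compared. Both transfers against STZ called 0 with only the groups compared, and 9 and 8 without control 3 and STZ 1. With the replicate number as a block, 2, 5 and 15 members were called for STZ+AOS against STZ, STZ+AOS-FMT and AOS. Same-numbered samples of different groups correlated above 0.1 in 15 of 45 pairs (median -0.00377), most in control 3 with STZ 3 (0.667) and control 1 with STZ 1 (0.544), and in 0 of 15 pairs of groups did all 3 numbers, so the numbers were not taken to pair the samples. The causes of these changes were not tested. Depth is unknown, so which small differences it hides cannot be given.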
